A study of Mus musculus with 8 samples.

Results

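The genes described here are 9 genes linked to oligodendrocytes, the myelin-forming glia of the central nervous system, that peripheral nerve also expresses. They are Cldn11, Mobp, Mapt, Bcas1, Tspan2, Gjc3, Sirt2, Gpr37 and Gpr37l1. Of these, Mapt is best known from neurons and Gpr37l1 from astrocytes. The 9 genes were chosen by symbol among 55487 Ensembl genes of the deposited table. All 9 were found, and all 9 were among the 15056 genes with enough counts to be tested. Expression in these nerves was part of the choice, and the results of the comparison below were known when the genes were chosen, so their presence and the number that differed are descriptions and support nothing further.

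Polyadenylated RNA of the whole sciatic nerve was sequenced from mice at postnatal day 6, when Schwann cells, which are the myelinating glia of peripheral axons, divide, differentiate and build myelin. The CNP-Cdk7cKO group (4 libraries, CNPcre/+ Cdk7lox/lox) carried Cre recombinase at 1 Cnp allele, which was used to delete floxed Cdk7 in Schwann cells. The Ctrl group (4 libraries, CNP+/+ Cdk7lox/lox) carried the same floxed Cdk7 alleles on both chromosomes and no Cre. Because the Ctrl mice had neither Cre nor an altered Cnp allele, loss of Cdk7, presence of Cre and loss of an intact Cnp allele cannot be told apart in this comparison. Separate animals per library are not stated in the labels, and p-values here therefore reflect the spread among these 8 libraries. That spread may be technical, although the Ctrl libraries, which were of both sexes, cannot all come from 1 animal.

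Cdk7, which encodes a kinase of the cell cycle and of RNA polymerase II transcription, lay at 9.62 to 12.7 CPM in CNP-Cdk7cKO nerves and at 20.6 to 22.2 CPM in Ctrl nerves, and Cnp, whose locus carries the Cre, averaged 1389 ± 61.6 CPM in CNP-Cdk7cKO and 3134 ± 137 CPM in Ctrl (SD, n = 4 each). CPM is the usual unit of counts relative to library size, here after TMM scaling of the library totals. Library totals lay between 16897231 and 21527886 estimated counts. By Xist and 4 Y-linked genes, all 4 CNP-Cdk7cKO libraries and Ctrl 1 were female and the other Ctrl libraries male. Summed skeletal muscle markers (20 genes) lay between 108 and 704 CPM in CNP-Cdk7cKO and between 603 and 5979 CPM in Ctrl, with the highest value in Ctrl 4. The part of sex and muscle tissue in the results was not tested beyond the fits with these measures as covariates, which are given beside the genes they touch.

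Schwann cells and oligodendrocytes both wrap axons in compact myelin, and they share some myelin proteins, such as myelin basic protein, while each relies on others that are its own. Claudin-11, MOBP and tau are textbook components of oligodendrocytes, where they form the tight junctions of the sheath, compact the membrane on its cytoplasmic side and bind microtubules in the cell processes. Connexin 29 (Gjc3), BCAS1, TSPAN2, SIRT2 and the receptors GPR37 and GPR37L1 are also glial proteins, and connexin 29 lies in the innermost Schwann cell membrane facing the axon.

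Promoter sequence is shown for 4 of the genes: Cldn11 and Mobp, which had the lowest levels in the knockout relative to Ctrl, Gjc3, the most abundant, and Sirt2, the 1 gene that did not pass the test. Each window is the 250 bases before the RefSeq start on GRCm38.p6, written 5′ to 3′ on the gene's strand. The windows are chr3:31149670-31149919 (plus strand) for Cldn11, chr9:120149492-120149741 (plus strand) for Mobp, chr5:137963099-137963348 (minus strand) for Gjc3 and chr7:28766502-28766751 (plus strand) for Sirt2. Capitals mark the core letters bound by SOX factors, ACAAAG or ACAATG on either strand, a family that includes the glial regulator SOX10.
Cldn11: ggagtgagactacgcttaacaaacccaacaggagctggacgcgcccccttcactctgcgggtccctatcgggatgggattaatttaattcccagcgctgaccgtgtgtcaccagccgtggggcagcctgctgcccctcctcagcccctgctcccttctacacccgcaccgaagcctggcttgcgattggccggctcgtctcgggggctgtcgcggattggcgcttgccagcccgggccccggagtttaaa
Mobp: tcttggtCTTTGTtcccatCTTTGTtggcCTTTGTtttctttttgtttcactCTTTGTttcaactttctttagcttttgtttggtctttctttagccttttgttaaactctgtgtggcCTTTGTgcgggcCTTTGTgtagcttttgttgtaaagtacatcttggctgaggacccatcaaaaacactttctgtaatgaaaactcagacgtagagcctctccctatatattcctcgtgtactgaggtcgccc
Gjc3: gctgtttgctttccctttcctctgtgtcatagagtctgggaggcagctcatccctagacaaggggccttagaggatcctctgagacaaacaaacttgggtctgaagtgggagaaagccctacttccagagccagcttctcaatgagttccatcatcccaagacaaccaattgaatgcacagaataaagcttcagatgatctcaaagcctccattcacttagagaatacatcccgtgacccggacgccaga
Sirt2: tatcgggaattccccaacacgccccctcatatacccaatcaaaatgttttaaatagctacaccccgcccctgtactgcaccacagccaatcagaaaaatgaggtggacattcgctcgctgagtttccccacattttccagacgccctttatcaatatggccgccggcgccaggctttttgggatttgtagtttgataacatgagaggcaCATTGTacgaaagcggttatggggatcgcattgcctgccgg

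The SOX core letters occurred 6 times in the Mobp window, from 243 to 120 bases before the start. No other window among the 32851 in the RefSeq table held as many. The Sirt2 window held 1 match, 41 bases before the start, and the Cldn11 and Gjc3 windows held 0. RefSeq windows were found for 7 of the 9 genes, 8 windows in all. Of these 8 windows 3 had at least 1 match, in Mobp, Sirt2 and Tspan2, while another Tspan2 window held 0. Over all windows searched, 25.2% had a match. The TATA box letters TATAAA were in 12.4% of all windows and the EGR core letters GCGTGGG in 4.30%, searched on both strands, and in none of the windows of these 7 genes. The motifs were chosen after some of these windows had been seen, and a match is a description of letters, not of binding.

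In CNP-Cdk7cKO nerves 8 of the 9 genes were lower than in Ctrl and 0 were higher, at a Benjamini-Hochberg adjusted p under 0.05 over all 15056 tested genes by the quasi-likelihood test of edgeR. Over all tested genes this fit called 6.60% lower and 5.07% higher, shares to set also beside the counts of the lists below. It called 1757 genes in either direction. With Xist, which separates the sexes, as a covariate 4 of the 9 were called lower, with 238 genes of the table called in either direction. With the muscle markers in the model 5 of the 9 were called lower, with 248 of the table. In the female libraries alone, with Ctrl 1 as the single control, the 9 log2 fold changes ran from -2.65 for Cldn11 to -0.04 for Sirt2. The 8 genes called lower with all 8 libraries had all 4 CNP-Cdk7cKO values below all 4 Ctrl values. This pattern was found in 9.51% of tested genes, against 9.34% for the opposite pattern, which 0 of the 9 genes had. Since these results were known when the genes were chosen, the shares are printed side by side and nothing is read from them. The median log2 fold change (CNP-Cdk7cKO over Ctrl) was -0.49 for the 9 genes and 0.0031 for all tested genes, and the 9 values ran from -2.55 for Cldn11 to 0.03 for Sirt2. All log2 fold changes, standard errors (SE) and adjusted p-values below come from the same edgeR fit.

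**Figure D1:**
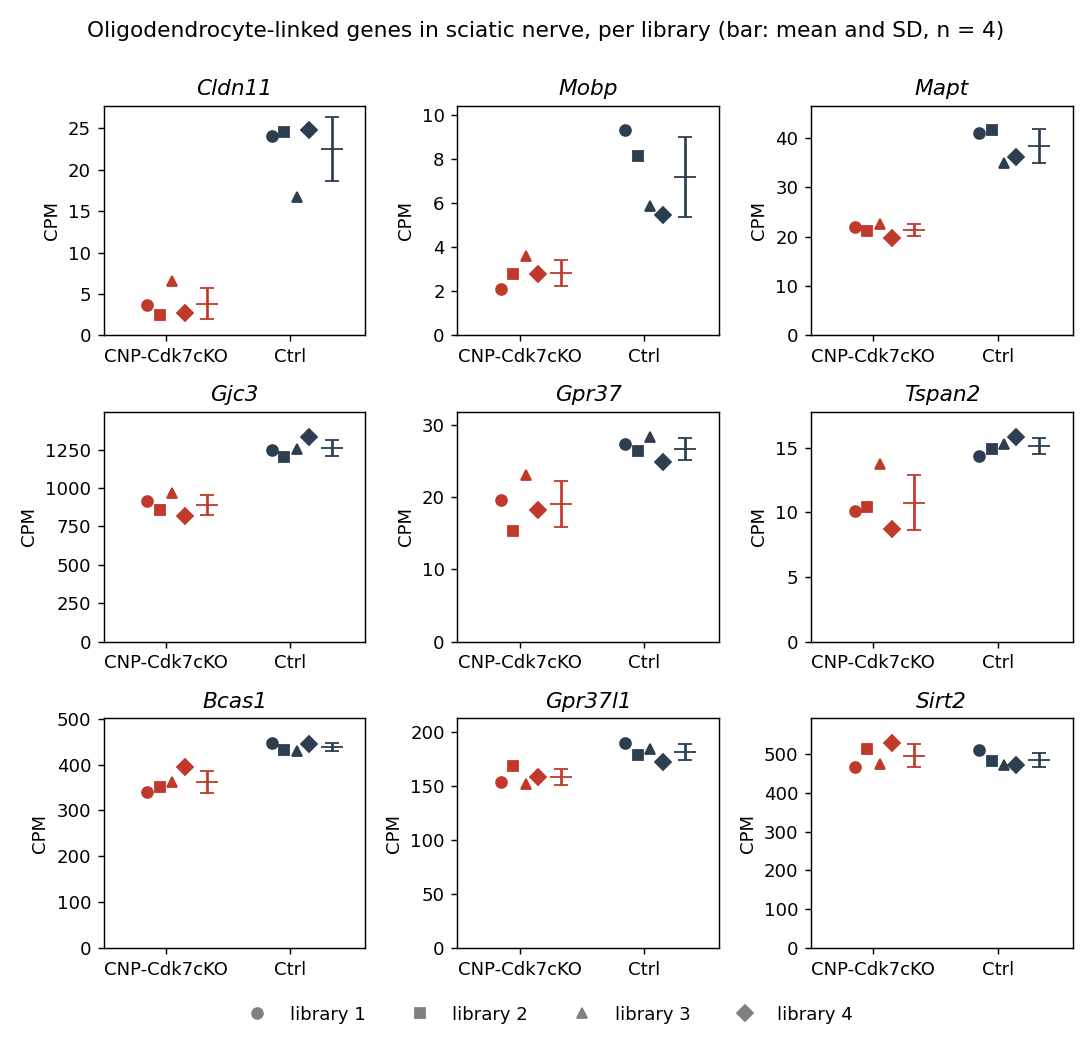
CPM (counts relative to the TMM-scaled library total, linear axes starting at 0) of each of the 9 genes in the 4 CNP-Cdk7cKO and 4 Ctrl libraries; symbols mark the library number and bars the mean ± SD. In each panel but that of Sirt2 every CNP-Cdk7cKO point lies below every Ctrl point, and in Cldn11 the Ctrl 3 point (16.7 CPM) lies below the other Ctrl points.

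Cldn11, which encodes the tight junction protein of oligodendrocyte myelin and of Sertoli cells (ENSMUSG00000037625, chromosome 3, 31149920 to 31164324, plus strand, GRCm38), showed the largest difference of the 9. It measured 3.67, 2.47, 6.53 and 2.70 CPM in CNP-Cdk7cKO 1 to 4, against 24.1, 24.5, 16.7 and 24.8 CPM in Ctrl 1 to 4. The ranges did not overlap, CNP-Cdk7cKO 3 was the highest of its group, and Ctrl 3 was the lowest of the controls. The means were 3.84 ± 1.87 CPM in CNP-Cdk7cKO and 22.5 ± 3.89 CPM in Ctrl (SD, n = 4 each), so that Cldn11 was 5.86-fold lower (log2 fold change -2.55 ± 0.26 SE, adjusted p = 0.000227 by the edgeR quasi-likelihood test). These levels rest on 51 to 131 counts per CNP-Cdk7cKO library and 356 to 508 counts per Ctrl library. Under the 18 alternative settings the log2 fold change of Cldn11 lay between -2.93 and -2.39 and passed the test each time. In the female libraries alone the adjusted p was 0.0181, in a fit with a single control, Ctrl 1, whose spread is taken from the knockout libraries.

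Mobp encodes a small basic protein of the cytoplasmic face of central myelin (ENSMUSG00000032517, chromosome 9, 120149707 to 120181484, plus strand). It measured 2.12, 2.80, 3.59 and 2.80 CPM in CNP-Cdk7cKO 1 to 4, against 9.30, 8.12, 5.87 and 5.46 CPM in Ctrl 1 to 4. The controls were spread over a wider range than the knockout libraries, yet the lowest of them was above the highest knockout value. Mobp was 2.53-fold lower (log2 fold change -1.34 ± 0.21 SE, adjusted p = 0.00275 by the edgeR quasi-likelihood test). It was the least abundant of the 9 genes, with 41 to 72 counts per CNP-Cdk7cKO library and 112 to 157 per Ctrl library. It passed in all 18 alternatives, with log2 fold changes between -1.96 (muscle markers as a covariate) and -1.19 (without Ctrl 1).

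Mapt, the gene of the microtubule-associated protein tau (ENSMUSG00000018411, chromosome 11, 104231390 to 104332090, plus strand), is best known from neurons and is also expressed in oligodendrocytes. It measured 22.04, 21.2, 22.6 and 19.7 CPM in CNP-Cdk7cKO 1 to 4, against 41.0, 41.6, 34.9 and 36.1 CPM in Ctrl 1 to 4. The knockout libraries lay close together, and all of them were below the controls. Mapt was 1.79-fold lower (log2 fold change -0.84 ± 0.07 SE, adjusted p = 9.85e-05 by the edgeR quasi-likelihood test), and it passed in all 18 alternatives, with log2 fold changes between -0.98 and -0.80.

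Since nerve contains axons, neuronal transcripts were read beside Mapt. The summed level of 10 neuronal markers was 48.3 to 56.6 CPM in CNP-Cdk7cKO and 41.8 to 52.0 CPM in Ctrl (exact permutation test, two-sided p = 0.0857 and 0.147 after adjustment over 12 lists). Of the 7 tested neuronal markers 0 were called lower and 1 higher, and the median log2 fold change was 0.12. The gene called higher was the neuronal tubulin Tubb3, at 10.2 ± 0.60 CPM in CNP-Cdk7cKO and 7.65 ± 0.68 CPM in Ctrl (SD, n = 4 each; log2 fold change 0.42 ± 0.10 SE, adjusted p = 0.0206 by the edgeR quasi-likelihood test). Rbfox3, which marks neuronal cell bodies, was at most 0.30 CPM in CNP-Cdk7cKO and 0.14 CPM in Ctrl. The part of axonal transcripts in the result for Mapt was not tested.

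Among 27 genes of microtubule-associated proteins, their regulators and tau kinases, 3 were called lower and 0 higher, and the median log2 fold change was -0.05. They were Map1b, at 69.4 ± 8.06 CPM in CNP-Cdk7cKO and 96.9 ± 2.70 CPM in Ctrl (log2 fold change -0.48 ± 0.08 SE), Map1a (-0.26 ± 0.04) and the tubulin-binding stathmin gene Stmn1 (-0.22 ± 0.06), with edgeR quasi-likelihood adjusted p of 0.00266, 0.00403 and 0.0435. Map1a and Map1b encode large proteins that bind microtubules. The kinase gene Fyn, whose product binds tau in oligodendrocytes, was at -0.15 on the log2 scale and did not pass (adjusted p = 0.0508; named after its value was seen).

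Gjc3 encodes connexin 29, a connexin of the inner Schwann cell membrane (ENSMUSG00000056966, chromosome 5, 137953461 to 137963098, minus strand). It measured 917, 855, 969 and 815 CPM in CNP-Cdk7cKO 1 to 4, against 1245, 1204, 1256 and 1334 CPM in Ctrl 1 to 4. No knockout library reached the lowest control. The means were 889 ± 67.9 CPM in CNP-Cdk7cKO and 1260 ± 54.3 CPM in Ctrl (SD, n = 4 each), so that Gjc3 was 1.42-fold lower (log2 fold change -0.50 ± 0.06 SE, adjusted p = 0.000389 by the edgeR quasi-likelihood test). The log2 fold change was -0.49 in the female libraries alone, and it did not pass in that fit with its single control (adjusted p = 0.0674).

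Of the other connexins, 9 of 19 had enough counts to be tested, and 0 were called lower and 0 higher (edgeR quasi-likelihood, with 0 also at an unadjusted p under 0.05), and the median log2 fold change was -0.02. Gjb1, the connexin 32 gene of the gap junctions that cross Schwann cell incisures, measured 122 ± 8.83 CPM in CNP-Cdk7cKO and 133 ± 8.59 CPM in Ctrl (log2 fold change -0.11 ± 0.06 SE, adjusted p = 0.287). Whether the difference of Gjc3 exceeded that of Gjb1 was not tested.

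The claudin that Schwann cells are known for is Cldn19, of the tight junctions of peripheral myelin. It measured 1643 ± 18.7 CPM in CNP-Cdk7cKO and 2157 ± 76.2 CPM in Ctrl (SD, n = 4 each; log2 fold change -0.39 ± 0.04 SE, adjusted p = 0.000105 by the edgeR quasi-likelihood test). Together with Cldn19, 3 of 16 tested genes of claudins, tight junction scaffolds and their partners, Cldn11 left out, were called lower and 0 higher, and the median log2 fold change was 0.01. The scaffold gene Mpdz was among those lower (-0.34 ± 0.08). Cldn1 and Cldn5, claudins of the perineurium and of endothelium, had log2 fold changes of 0.04 and 0.05 and did not pass (Cldn5 was named after its value was seen).

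Bcas1 encodes a cytoplasmic protein that marks oligodendrocytes as they begin to myelinate (ENSMUSG00000013523, chromosome 2, 170346991 to 170427845, minus strand). It measured 340, 351, 362 and 395 CPM in CNP-Cdk7cKO 1 to 4, against 447, 431, 430 and 445 CPM in Ctrl 1 to 4. The controls lay within a narrow range, and CNP-Cdk7cKO 4 came nearest to it. Bcas1 was 1.21-fold lower (log2 fold change -0.28 ± 0.05 SE, adjusted p = 0.00507 by the edgeR quasi-likelihood test). It did not pass with Xist as a covariate (-0.30, adjusted p = 0.0979), with muscle markers in the model (-0.31, adjusted p = 0.12) or in the female libraries alone (-0.31, adjusted p = 0.203).

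Tspan2, a tetraspanin gene of developing oligodendrocytes (ENSMUSG00000027858, chromosome 3, 102734529 to 102801513, plus strand), measured 10.1, 10.4, 13.7 and 8.73 CPM in CNP-Cdk7cKO 1 to 4, against 14.4, 14.9, 15.3 and 15.8 CPM in Ctrl 1 to 4. The groups did not overlap, but CNP-Cdk7cKO 3 lay just under the lowest control. Tspan2 was 1.40-fold lower (log2 fold change -0.49 ± 0.12 SE, adjusted p = 0.0262 by the edgeR quasi-likelihood test). The call was lost when CNP-Cdk7cKO 1 or 2 or Ctrl 2, 3 or 4 was left out (adjusted p between 0.0526 and 0.0725), with Xist (-0.42, adjusted p = 0.351) or muscle markers (-0.52, adjusted p = 0.312) as a covariate, and among the females only (-0.42, adjusted p = 0.469).

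Of 25 other tetraspanins tested, 2 were called lower and 2 higher, in a table where 6.60% of genes were called lower and 5.07% higher, and the median log2 fold change was 0.05. Tspan18 was lower (-0.66 ± 0.12) and so was Tspan14 (-0.19 ± 0.05), while Cd37, a tetraspanin of leukocytes, was higher (0.44 ± 0.13). Cd81, a widely expressed tetraspanin, was also higher, at 483 ± 8.82 CPM in CNP-Cdk7cKO and 415 ± 12.1 CPM in Ctrl (log2 fold change 0.22 ± 0.04 SE, adjusted p = 0.00429 by the edgeR quasi-likelihood test). Cd9, the most abundant of them in these nerves by CPM, measured 1438 ± 63.4 CPM in CNP-Cdk7cKO and 1445 ± 65.6 CPM in Ctrl and did not pass (adjusted p = 0.948).

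Gpr37 and Gpr37l1 encode related G protein-coupled receptors for which peptides of prosaposin have been proposed as ligands. Gpr37 restrains oligodendrocyte differentiation in mice, and Gpr37l1 is best known from astrocytes. Gpr37 (ENSMUSG00000039904, chromosome 6, 25665878 to 25690729, minus strand) measured 19.7, 15.3, 23.0 and 18.2 CPM in CNP-Cdk7cKO 1 to 4, against 27.4, 26.4, 28.4 and 24.8 CPM in Ctrl 1 to 4. Every knockout library was below every control, with CNP-Cdk7cKO 3 the nearest. Gpr37 was 1.40-fold lower (log2 fold change -0.49 ± 0.11 SE, adjusted p = 0.0133 by the edgeR quasi-likelihood test). It did not pass with Xist as a covariate (-0.52, adjusted p = 0.169) or in the female libraries alone (-0.53, adjusted p = 0.27). In the fit with muscle markers it passed at -0.75 (adjusted p = 0.0442).

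Gpr37l1 (ENSMUSG00000026424, chromosome 1, 135160234 to 135167681, minus strand) measured 153, 168, 152 and 158 CPM in CNP-Cdk7cKO 1 to 4, against 189, 178, 184 and 172 CPM in Ctrl 1 to 4. The highest knockout value and the lowest control value differed by little. The difference was the smallest of the 8 that passed, 1.15-fold lower (log2 fold change -0.20 ± 0.05 SE, adjusted p = 0.0247 by the edgeR quasi-likelihood test). The call was lost when CNP-Cdk7cKO 1 or 3 or Ctrl 1, 2 or 3 was left out (adjusted p between 0.0553 and 0.0697), with Xist (-0.27, adjusted p = 0.115) or muscle markers (-0.23, adjusted p = 0.235) as a covariate, and among the females only (-0.27, adjusted p = 0.226).

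Psap, the prosaposin gene, measured 1396 ± 53.7 CPM in CNP-Cdk7cKO and 1345 ± 42.9 CPM in Ctrl (SD, n = 4 each; log2 fold change 0.05 ± 0.04 SE, adjusted p = 0.428 by the edgeR quasi-likelihood test). Among 17 tested genes of this ligand and of inhibitory G protein and cyclic AMP signalling, 0 were called lower and 2 higher, and the median log2 fold change was -0.08. Those higher were the G protein subunit gene Gnai2 (0.16 ± 0.04) and the adenylyl cyclase gene Adcy5 (0.23 ± 0.07). Satellite glia and astrocyte markers, which Gpr37l1 could also mark, summed to 163 to 200 CPM in CNP-Cdk7cKO and 193 to 236 CPM in Ctrl over 7 genes (exact permutation test, two-sided p = 0.0571 and 0.114 after adjustment over 12 lists). Most of that sum was Kcnj10, a potassium channel gene also expressed in other glia, at 167 CPM in CNP-Cdk7cKO and 201 CPM in Ctrl. Kcnj10 was the 1 gene called lower of 5 tested in this list, with 0 higher (log2 fold change -0.27 ± 0.08 SE, adjusted p = 0.0498 by the edgeR quasi-likelihood test). Of the 5 log2 fold changes 3 were negative and 2 positive. The part of these cells in the result for Gpr37l1 was not tested.

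Sirt2 encodes an NAD-dependent deacetylase whose known substrates include tubulin and, in Schwann cells, the polarity protein PAR-3 (ENSMUSG00000015149, chromosome 7, 28766735 to 28788661, plus strand). It measured 467, 512, 476 and 528 CPM in CNP-Cdk7cKO 1 to 4, against 509, 483, 471 and 471 CPM in Ctrl 1 to 4. The groups overlapped fully, with both the lowest and the highest value in knockout libraries. The means were 496 ± 29.3 CPM in CNP-Cdk7cKO and 484 ± 17.9 CPM in Ctrl (SD, n = 4 each; log2 fold change 0.03 ± 0.05 SE, adjusted p = 0.708 by the edgeR quasi-likelihood test). A gene on the opposite strand, Nfkbib, overlaps Sirt2 (log2 fold change 0.21, adjusted p = 0.017), and the sources used here do not say whether counting used the strand. Of 19 genes of the other sirtuins, PAR polarity proteins, FOXO factors and NAD synthesis, 1 was called lower and 0 higher, and the median log2 fold change was -0.02. That was Foxo1 (-0.27 ± 0.08, adjusted p = 0.0484), the gene of a transcription factor that SIRT2 can deacetylate. Pard3, the PAR-3 gene, measured 27.6 ± 2.39 CPM in CNP-Cdk7cKO and 32.4 ± 3.91 CPM in Ctrl and did not pass (adjusted p = 0.122).

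**Figure D2:**
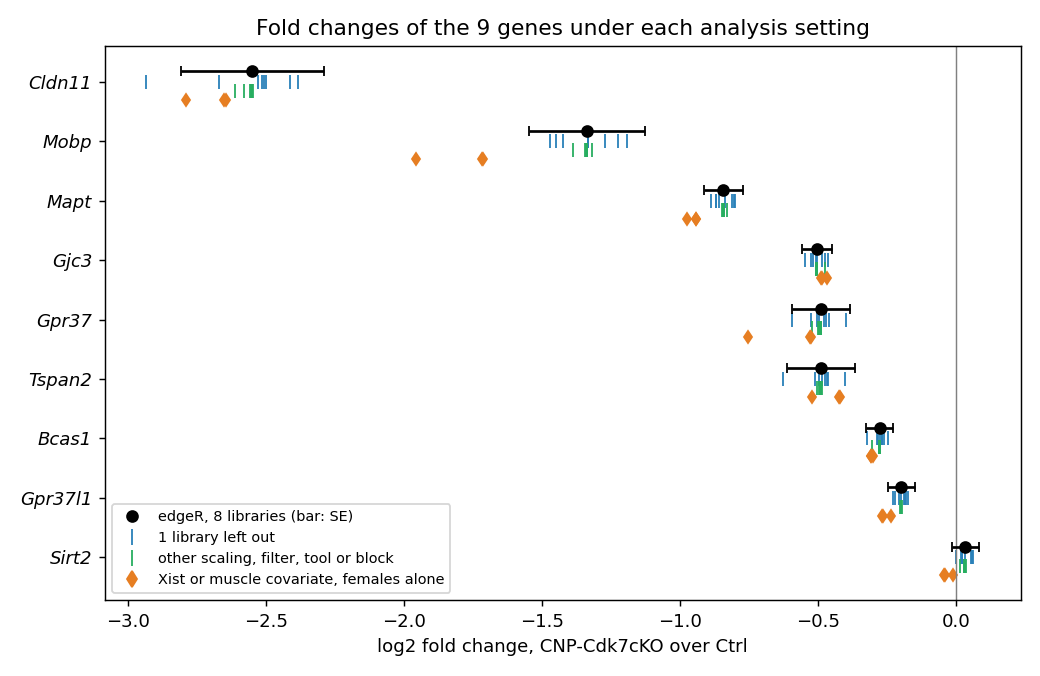
Log2 fold change (CNP-Cdk7cKO over Ctrl) of the 9 genes in the edgeR fit of all 8 libraries (black, bar SE) and under each of 18 alternatives (coloured marks). Every mark of Cldn11, Mobp, Mapt, Gjc3, Gpr37, Tspan2, Bcas1 and Gpr37l1 lies below 0, and the marks of Sirt2 lie on both sides of 0, between -0.04 and 0.06.

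The plot of fold changes by setting shows that 8 of the 9 genes kept a negative value in each of the 18 alternatives, while Sirt2 changed sign in 3 of them and passed in 0. Ctrl 1, the female control, is the library to set beside the 4 female knockout libraries. Since 8 of the 9 genes had no overlap between the groups, it lay above the knockout libraries in those genes by definition. Against the male controls it was higher than their range in 4 genes, inside it in 4 and below it in 1, Tspan2. For Mobp, Ctrl 1 had 9.30 CPM and the male controls between 5.46 and 8.12 CPM.

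CNP-Cdk7cKO 3 held the highest value of its group in 6 of the 9 genes, namely Cldn11, Mobp, Mapt, Gjc3, Gpr37 and Tspan2. In the same library the skeletal muscle markers were at their lowest among the knockout libraries, 108 CPM. Cdk7 was at its highest there, 12.7 CPM, against 9.62, 11.8 and 12.1 CPM in CNP-Cdk7cKO 1, 2 and 4. The part of either in these values was not tested. In the Ctrl group, Ctrl 1 was highest in 4 genes and Ctrl 3 lowest in 4.

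To compare the 9 genes with each other, counts were divided by the length of the gene's merged exons and scaled to the same total in every library (length-scaled level). Gjc3 was the most abundant on this scale, at 668 ± 57.9 in CNP-Cdk7cKO and 906 ± 29.6 in Ctrl (SD, n = 4 each), within the top 0.964% and 0.631% of 15047 genes in those groups. Bcas1, Sirt2 and Gpr37l1 formed a band between 228 and 322 in CNP-Cdk7cKO and between 250 and 364 in Ctrl. In Ctrl the order within this band was Bcas1, Sirt2, Gpr37l1, with no overlap between neighbours over libraries. In CNP-Cdk7cKO the libraries of Sirt2 and Bcas1 overlapped, so the order of these neighbours does not stand beyond their spread.

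The remaining 5 genes were at least 6.63-fold below Gpr37l1 in Ctrl by their mean length-scaled levels. Cldn11 led them in Ctrl at 37.7 ± 6.27, above Mapt (16.0 ± 1.46), Gpr37 (13.8 ± 0.93), Tspan2 (9.94 ± 0.37) and Mobp (3.29 ± 0.84). In CNP-Cdk7cKO the length-scaled level of Cldn11 was 6.74 ± 3.31, below those of Gpr37 (10.3 ± 1.79), Mapt (9.30 ± 0.65) and Tspan2 (7.41 ± 1.49). Library ranges of neighbours overlapped for all of these in CNP-Cdk7cKO, and in Ctrl for Mapt and Gpr37. Mobp was lowest in both groups, at 1.35 ± 0.28 in CNP-Cdk7cKO, and its libraries overlapped with no neighbour in either group.

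**Figure D3:**
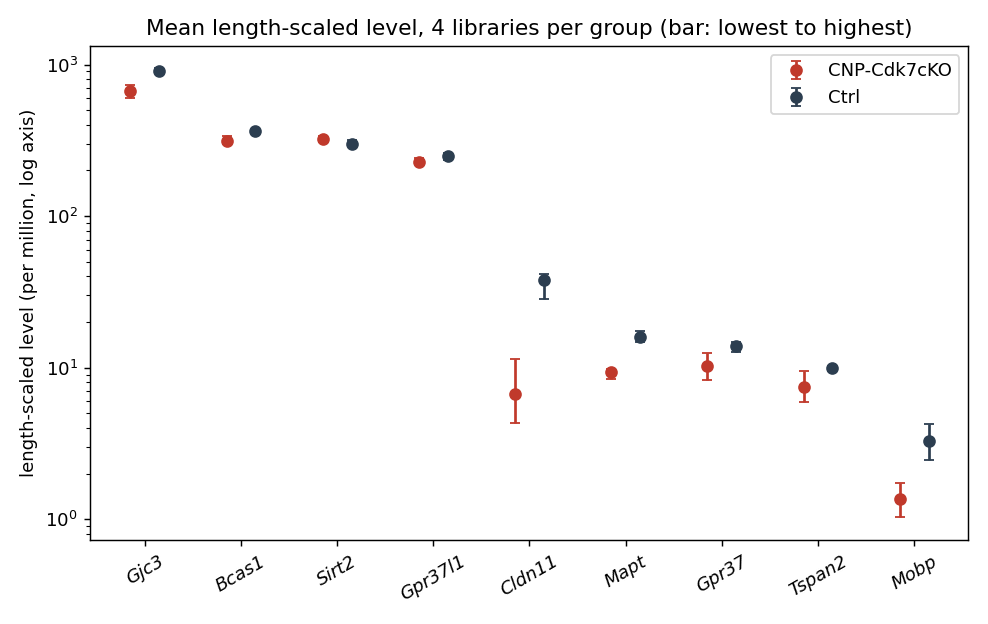
Length-scaled level (counts per kilobase of merged exon, scaled to the same total in every library; log axis) of the 9 genes in CNP-Cdk7cKO and Ctrl, as the mean of 4 libraries with bars from the lowest to the highest. Gjc3 is highest in both groups (668 in CNP-Cdk7cKO and 906 in Ctrl), and Cldn11 lies at 6.74 in CNP-Cdk7cKO and 37.7 in Ctrl.

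Only 3 of 12 markers that define oligodendrocytes had enough counts to be tested. Olig2, a transcription factor of the lineage, had 0 counts in all 8 libraries, and 3 counts would correspond to between 0.141 and 0.184 CPM. Mog, of the outer surface of central myelin, was at most 0.06 CPM in any library, Olig1 at most 0.10 CPM, and Opalin, another central myelin protein gene, at most 0.52 CPM. The 3 tested genes were higher than these: Tmem88b averaged 2.05 CPM in CNP-Cdk7cKO and 2.94 CPM in Ctrl, Myrf 1.605 CPM in CNP-Cdk7cKO and 2.37 CPM in Ctrl, and Gpr17 0.81 CPM in CNP-Cdk7cKO and 1.55 CPM in Ctrl. Of these 3 genes 0 passed in edgeR's quasi-likelihood test (adjusted p = 0.0667, 0.123 and 0.104, log2 fold changes -0.52, -0.56 and -0.92), while all 3 had an unadjusted p under 0.05. The 12 genes summed to 4.47 to 6.38 CPM in CNP-Cdk7cKO and 7.45 to 8.09 CPM in Ctrl (exact permutation test, two-sided p = 0.0286, which 4 against 4 libraries cannot go below, and 0.114 after adjustment over 12 lists). The sums did not overlap, but both were below 10 CPM for the whole list, and their part in the result was not tested.

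The 12 Schwann cell markers gave 5 genes lower and 0 higher, and the median log2 fold change was -0.18. They summed to between 77718 and 85584 CPM in CNP-Cdk7cKO and between 105700 and 118173 CPM in Ctrl (exact permutation test, two-sided p = 0.0286 and 0.114 after adjustment over 12 lists). Among those lower were the cadherin gene Cdh19, at -0.81 ± 0.15 on the log2 scale, and Pmp22, a gene of compact peripheral myelin, at -0.19 ± 0.04. In RNA from whole nerve, fewer Schwann cells and less of a transcript per Schwann cell cannot be told apart. The fibroblast list summed to between 30411 and 35254 CPM in CNP-Cdk7cKO and between 26506 and 30172 CPM in Ctrl (two-sided exact permutation p = 0.0286 and 0.114 after adjustment over 12 lists). Most of that sum was the collagen genes Col1a1 and Col1a2. Of its 6 markers 2, Col1a1 and Pdgfra, were called higher and 0 lower. Dpt went the other way without passing (log2 fold change -0.60 ± 0.24 SE). The macrophage list summed to between 284 and 341 CPM in CNP-Cdk7cKO and between 251 and 306 CPM in Ctrl (two-sided exact permutation p = 0.0571 and 0.114 after adjustment over 12 lists). Of its 6 markers 2, Csf1r and C1qa, were called higher and 0 lower, with 5 log2 fold changes positive and 1 negative.

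Among other genes best known from oligodendrocytes, some were lower and some higher. A list of 51 such genes, without the 9 genes and Cnp, had 39 tested members, of which 8 were called lower and 2 higher, and the median log2 fold change was -0.12. Aspa, the gene of the N-acetylaspartate-cleaving enzyme that supplies acetate for myelin lipids in the brain, was lower, at 39.2 ± 2.63 CPM in CNP-Cdk7cKO and 69.6 ± 5.19 CPM in Ctrl (SD, n = 4 each; log2 fold change -0.83 ± 0.07 SE, adjusted p = 7.13e-05 by the edgeR quasi-likelihood test). Plekhb1 (-0.33 ± 0.04) and the small heat shock protein gene Cryab (-0.24 ± 0.05) were lower too. The genes called higher, both named because the count was small, were the transferrin gene Trf and Nipal4. Trf measured 73.7 ± 7.55 CPM in CNP-Cdk7cKO and 57.1 ± 3.59 CPM in Ctrl. Nipal4 measured 0.77 ± 0.22 CPM in CNP-Cdk7cKO and 0.23 ± 0.16 CPM in Ctrl, where 3 counts correspond to between 0.141 and 0.184 CPM. With the filter of 1 CPM in 4 libraries 1 gene of this list was called higher. Counts in this list fell to 5 lower without CNP-Cdk7cKO 1 or Ctrl 3, and to 4 lower and 0 higher when Xist or the muscle level entered the model.

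**Figure D4:**
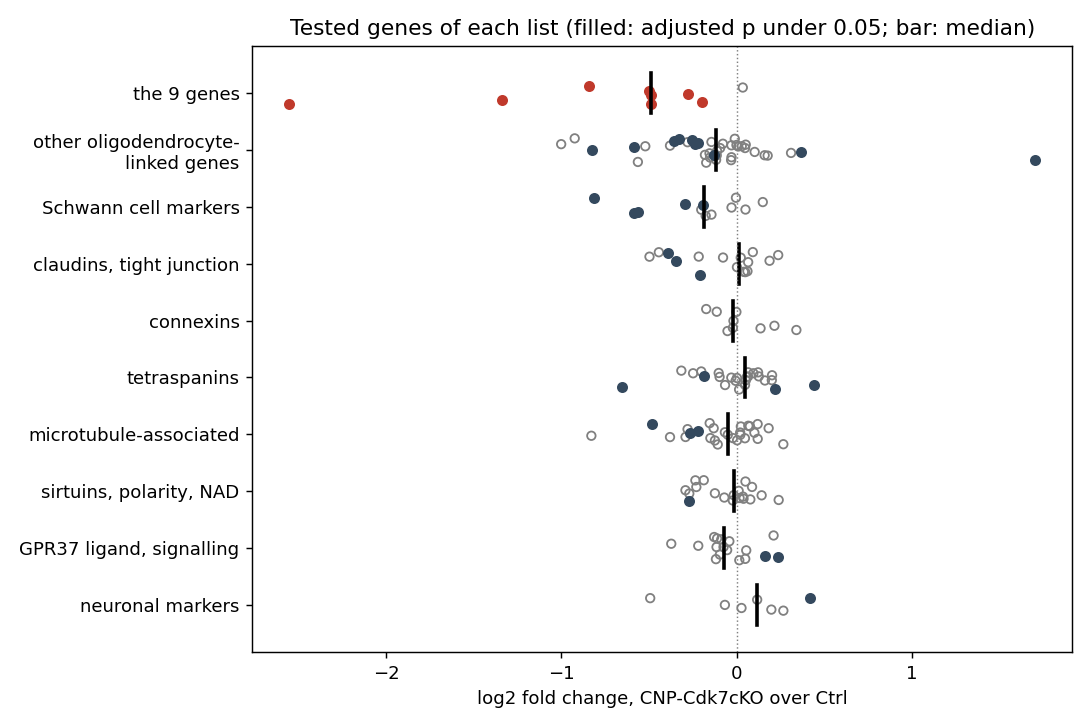
Log2 fold change (CNP-Cdk7cKO over Ctrl, x axis) of each tested gene of the 9 genes and of 9 other lists (rows); filled points passed the test and bars mark list medians. The median is -0.49 for the 9 genes, which were chosen with these results known, and lies between -0.18 (Schwann cell markers) and 0.12 (neuronal markers) for the other lists drawn; among lists not drawn it was -3.06 for skeletal muscle, -0.57 for erythroid, -0.56 for oligodendrocyte-defining, -0.47 for adipocyte, -0.27 for astrocyte and satellite glia, 0.20 for fibroblast and 0.30 for macrophage markers.

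For each of the 9 genes, the genes with the most similar profile were sought among 9628 tested genes with a mean of at least 10 CPM, by the root mean square difference of mean-centred log2 CPM over the 8 libraries. This distance includes the difference between the groups, so neighbours have similar fold changes by construction. The nearest to Mapt was Aspa (distance 0.064), followed by Insig1, a sterol sensor gene (0.070). The nearest to Gpr37l1 was Pmp22 (0.026), and the nearest to Gjc3 was Plekha1 (0.048). For Bcas1 they were Tbc1d17 (0.036) and the tubulin gene Tuba1a (0.040), and for Gpr37 Rftn2 (0.083) and the growth factor gene Ptn (0.086).

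Tspan2 was nearest to Cep97 (0.062) and Sema4d (0.078), and Sirt2 to Slc12a9 (0.027). For Mobp the nearest was Lgals3, at 0.24, and for Cldn11 it was Rxrg, a retinoid X receptor gene, at 0.41. These larger distances cannot be read as a lack of similar genes. The distance was not scaled to the size of the change, and Cldn11 and Mobp had the largest changes of the 9 genes. Mobp averaged 2.83 CPM in CNP-Cdk7cKO and 7.19 CPM in Ctrl, under the mean CPM limit of the search. Genes at its own level were therefore not searched. Rxrg measured 4.03 CPM in CNP-Cdk7cKO and 16.5 CPM in Ctrl, a log2 fold change of -2.03 ± 0.18 (SE; adjusted p = 0.000115 by the edgeR quasi-likelihood test), against -2.55 for Cldn11.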

How the data were processed

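RNA from 8 sciatic nerve samples was sequenced as stranded polyadenylated libraries made from column-purified, DNase-treated RNA, per the labels' protocols. The authors deposited estimated counts for each gene; STAR, Salmon and GRCm38 are named for them, per the submitters' processing notes, with versions, settings and the annotation not given in the sources used here. A share of 8.29% was not whole, so every value was rounded. Symbols were found for 55141 of 55487 gene identifiers; coordinates and merged exon lengths came from a GENCODE annotation of GRCm38, and promoter windows from RefSeq.

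The edgeR filter filterByExpr (minimum count 10, minimum total 15) kept 15056 genes, which were scaled by TMM and compared with edgeR 4.0.16 (quasi-likelihood F test, R 4.3.3), CNP-Cdk7cKO over Ctrl, at a Benjamini-Hochberg adjusted p under 0.05. The 18 alternatives were RLE factors, TMM computed with mitochondrial, adipocyte, erythroid and muscle genes set aside, 2 other count filters, DESeq2 1.42.0, limma-voom (3.58.1) with quality weights, a replicate block, Xist or muscle markers as a covariate, female libraries alone, and each library left out. Log CPM for the likeness search used a prior count of 2. Marker sums were compared by exact permutation. The members, lists, tests and naming rule were chosen with earlier results of these data known. All 9 genes were named; from each other list up to 4 called genes with the smallest p, or the 2 with the highest mean CPM, plus listed family partners; others are marked, and some genes under this rule are not reported here. Libraries of a group differed beyond counting noise (chi-square over degrees of freedom, 3.86 to 17.6). The script was tested on simulated data. Floors and counts cover counting error only.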

Additional observations from a re-analysis of the deposited data

Results flagged for a closer look

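Each of the 9 genes was checked in each group of 4 libraries for a library set apart from the others, 18 checks in all, of which chance flags about 1 in 20. The check found 1: Cldn11 in Ctrl 3, at 16.7 CPM, below the next control at 24.1 CPM. The gap was 0.919 of the range of the Ctrl group, above Dixon's critical value for 4 samples. Without Ctrl 3 the log2 fold change of Cldn11 was -2.67, against -2.55 with all libraries, and it passed the test both times.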

How the results depend on the processing

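Of the 9 genes, 8 were called lower with all 8 libraries, also with RLE factors, the reduced TMM set, either other count filter, DESeq2 and limma-voom. With Xist as a covariate 4 were called lower, with the muscle markers as a covariate 5, and in the female libraries alone 3; over all genes these settings called 238, 248 and 114, against 1757, and 4, 4 and 2 of the other oligodendrocyte-linked genes lower and 0 higher, against 8 and 2. Cldn11, Mobp and Mapt passed in all 18 alternatives. The sign of Sirt2, which passed in none, turned with Xist (-0.0383), with the muscle markers (-0.0115) and in the females alone (-0.0426). With 1 library left out, 6 to 8 of the 9 genes were called lower and 0 higher, 5 to 9 of the other oligodendrocyte-linked genes lower and 1 to 2 higher, and 1123 (without Ctrl 2) to 1481 of all genes. The filter of 1 CPM in 4 libraries called 1 of the other oligodendrocyte-linked genes higher. The cause of these shifts was not tested; the standard error of Gjc3, as an example, was 0.06 with all libraries, 0.09 with Xist and 0.10 in the females alone. Same-numbered libraries did not deviate together (correlations between 0.0089 and 0.127 over 15056 genes), and 1 of the 4 knockout libraries matched its own number best. With the replicate number as a block 7 of the 9 genes were called lower, Gpr37l1 dropping out (adjusted p = 0.0522), and 1608 of all genes were called. By counting alone the least precise levels were those of Mobp, with 41 to 72 counts per CNP-Cdk7cKO library and 112 to 157 per Ctrl library.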
